A study of Mus musculus with 12 samples.

Results

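The genes described here are 10 transcription factors of the activator protein 1 (AP-1) and immediate early group, namely Jun, Junb and Jund of the Jun family, Fos, Fosb, Fosl1 and Fosl2 of the Fos family, the related basic leucine zipper factors Atf3 and Maff, and the zinc finger factor Egr1. They were chosen by name, as the transcript clusters of the array whose platform annotation gave 1 of these symbols. Each of the 10 symbols had exactly 1 cluster, so the set holds 10 of the 19505 genes with a symbol of their own among the 22206 clusters tested. In untreated cultures all 10 lay above the level of silent genes, which was set at 5.78 on the log2 scale, the 90th percentile over 1452 clusters for receptors of smell, pheromones and taste.

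The arrays came from mouse primary cultures of the enteric nervous system (ENS), grown from the gut of embryos at e14.5 per the labels (the methods give a range of ages that ends there) and exposed to lipopolysaccharide (LPS), the bacterial wall component that activates the receptor TLR4, or to 6-mercaptopurine (6-MP), a thiopurine drug used in inflammatory bowel disease, or to both. There were 4 groups of 3 arrays each. Controls received neither compound, the 6-MP group received 50 µM 6-MP for 16 h, the LPS group received 10 ng/ml LPS for 6 h, and the LPS + 6-MP group received 50 µM 6-MP for 16 h and then 10 ng/ml LPS for 6 h. All 4 groups shared the Sox10flox mouse line, whose modification the study's methods call irrelevant to the experiments, and the same culture medium, serum at the start and a medium with the N2 supplement afterwards. The cultures were mixed populations, so a change in the RNA of a factor per cell and a change in the number of cells that express it cannot be told apart. RNA was read on Clariom S arrays. The methods speak of 3 independent experiments, so arrays of different groups may share an experiment, and the labels do not say which do.

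AP-1 is a dimer of basic leucine zipper proteins. Jun proteins can pair with each other or with Fos proteins, whereas Fos proteins need a Jun partner, and the dimers bind DNA elements that read TGACTCA or, with ATF-type partners, TGACGTCA. Many of these genes are immediate early genes, whose transcripts appear within minutes of a stimulus without any new protein synthesis and usually decline again soon after. Downstream of TLR4, MAP kinases drive their transcription and phosphorylate their products. In the gut wall, Fos is widely used as a mark of recently active enteric neurons, and Egr1 as a mark of growth factor and stress signalling.

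The labelled tissue was checked against marker genes. In controls 8 of 8 measured neuronal markers lay above the level of silent genes, but 3 of 6 measured markers of glia and progenitors did not, with control means of 5.43 for Sox10, 3.72 for S100b and 5.50 for Foxd3. Markers of smooth muscle (7 of 7), fibroblasts (6 of 6), epithelium (6 of 6) and macrophages (7 of 7) were above it as well. Of 7 markers of mast cells and other leukocytes only 3 were, so the mean of that list rests largely on signals near silence. On the second principal component of all clusters, every group had 1 array that stood apart from its other 2, at 33.2 to 48.2 against −32.5 to −8.16 for the other 8 arrays. These arrays were control 2, 6-MP 1, LPS 2 and LPS + 6-MP 1. No label sets them apart, and whether they share 1 of the experiments is not given. Against the other arrays of their group they read 0.73 higher on the log2 scale over the neuronal markers, 0.82 higher over the epithelial and 0.58 higher over the mast cell and other leukocyte markers, and 1.37 lower over smooth muscle, 0.51 lower over fibroblast and 0.70 lower over macrophage markers. Several of the 10 factors followed this split, so the LPS results are also given without these arrays and with the split as a term of the fit.

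Across the 10 factors, LPS went with higher Junb, Egr1, Fosl1 and Fosl2 signals, while Fos, Fosb, Jun and Jund differed from their control means by at most 0.23 on the log2 scale. At 6 h of LPS without 6-MP, 0 of the 10 factors passed an adjusted p of 0.05 with a fold of at least 2 in limma, where 1.51% of all 22206 clusters passed in the upward direction, and 4 of the 10 had an unadjusted p under 0.05 in that direction, against 4.76% of all clusters. In 4 of the 10 factors all 3 LPS arrays lay above all 3 control arrays, against 6.88% of all clusters. The change was above 0 in 9 of 10 factors, against 43.4% of all clusters, and its median over the 10 was 0.45 on the log2 scale, against −0.04 over all clusters. When the 6 arrays with LPS were set against the 6 without it, a comparison added after the group values were seen, Junb and Egr1 passed both limits, Egr1 by a narrow margin (adjusted p = 0.0445, limma) that was lost when any 1 of 9 arrays was left out.

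**Figure D1:**
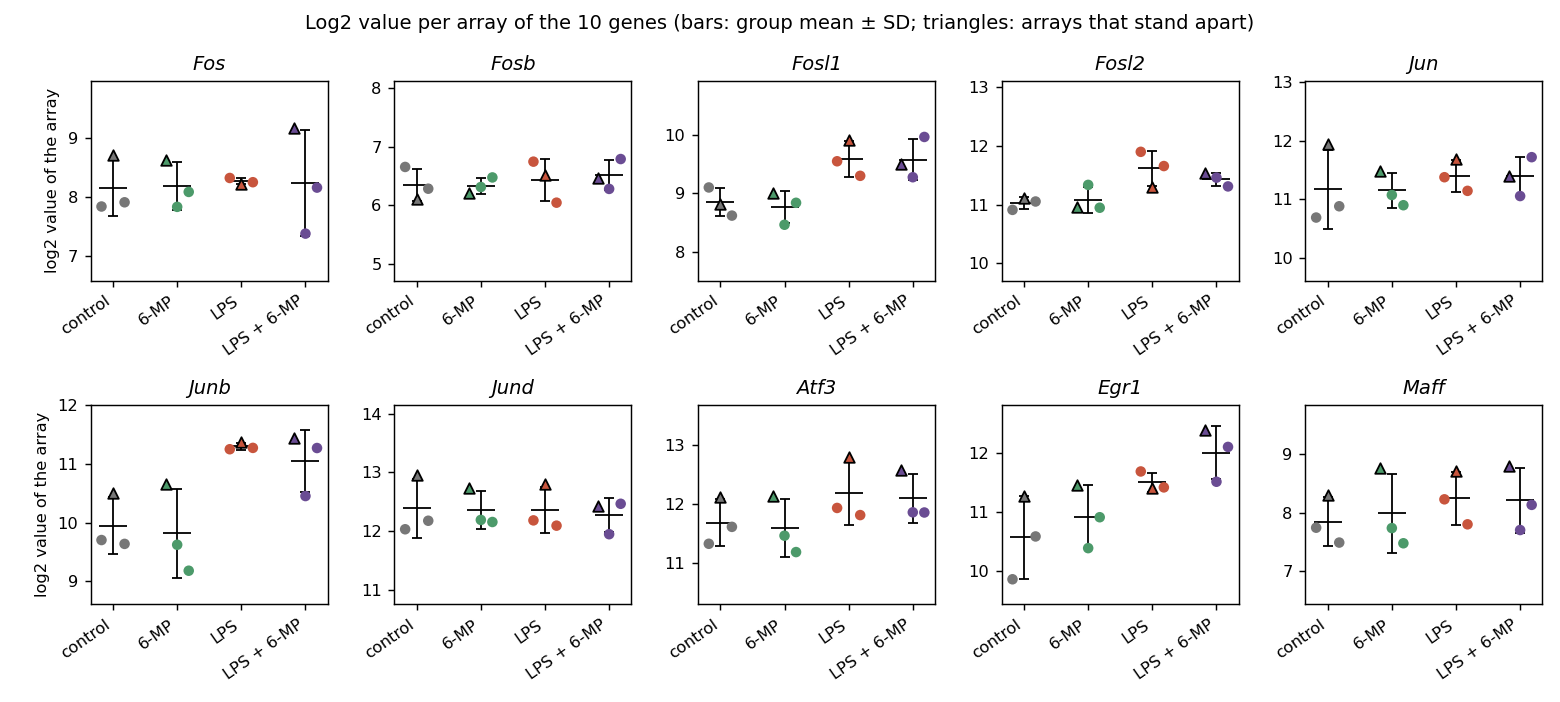
Log2 value of each of the 10 genes on every array, by group, with bars for the group mean ± SD (n = 3 arrays) and triangles for the 4 arrays that stand apart; every panel spans the same log2 range. The Junb panel shows the LPS arrays between 11.25 and 11.37 above all controls, and the Atf3 and Maff panels show the triangle as the highest point of each group.

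Junb, a Jun family member that activates some promoters and restrains Jun at others, had the largest LPS difference of the 10. Its log2 values were 9.70, 10.50 and 9.64 in controls 1 to 3 and 11.25, 11.37 and 11.27 in the LPS arrays 1 to 3. The LPS arrays lay close together and all above the highest control, which was control 2, an array that stands apart. The difference was 1.35 ± 0.37 on the log2 scale (SE, limma), a 2.55-fold higher signal, with an unadjusted p of 0.0031 and an adjusted p of 0.125 over all clusters. It thus missed the adjusted limit. With the split of the arrays as a term in the fit, the same difference had an SE of 0.26 and an adjusted p of 0.00924. That fit called 2.2% of all clusters in either direction. Without the 4 arrays that stand apart the difference was 1.59 with an adjusted p of 0.0231. The 4 arrays were picked from these same data, so both p-values are open to that choice.

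Under 6-MP, Junb read 10.65, 9.62 and 9.18 without LPS and 11.43, 10.45 and 11.27 with it. These groups overlapped, because array 1 of the 6-MP group lay above array 2 of the LPS + 6-MP group. The difference was 1.23 ± 0.37 with an adjusted p of 0.173 in limma, and with 1 array left out it ran from 0.92 without 6-MP array 3 (adjusted p = 0.445) to 1.65 without 6-MP array 1 (adjusted p = 0.0270). With the split as a term its adjusted p was 0.0183, in a fit that called 2.14% of all clusters in either direction. Without the 4 arrays that stand apart the difference was 1.46 with an adjusted p of 0.0354. Both p-values are open to the same choice of arrays. By group mean the order was 6-MP (9.82), control (9.95), LPS + 6-MP (11.05) and LPS (11.30), and neighbouring groups in this order overlapped in their arrays.

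Jun, the founding member of AP-1, and Jund, the family member that most tissues express without a stimulus, showed no such separation. Jun read 10.69, 11.94 and 10.88 in controls, 11.48, 11.07 and 10.90 with 6-MP, 11.38, 11.69 and 11.14 with LPS, and 11.40, 11.06 and 11.72 with both. Control 2 was the highest of all 12 arrays, so controls and LPS arrays overlapped, and the difference of 0.23 had a 95% interval of −0.44 to 0.91 (adjusted p = 0.928, limma). Jund read 12.03, 12.96 and 12.18 in controls, 12.74, 12.19 and 12.16 with 6-MP, 12.18, 12.81 and 12.09 with LPS, and 12.43, 11.95 and 12.47 with both. Its 4 groups lay over each other, with control 2 again the highest array, and LPS minus control was −0.03 with an interval of −0.65 to 0.59. The 2 genes moved together over the arrays. Their values, each centred on its own mean, differed by 0.19 in root mean square over the 12 arrays, the lowest of the 45 pairs among the 10 factors.

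Promoter sequence is shown for Junb, whose LPS difference was the largest of the 10, and for Jun, whose LPS and control arrays overlapped. The stretches come from RefSeq on build GRCm38.p6, from windows that run 250 bases before to 50 bases after a gene's start, and only upstream bases are printed. All windows were searched on both strands for TGACTCA, TGACGTCA, the shorter TGACGT that it contains, TGACATCA, GCGNGGGCG (the site of EGR factors), the NF-kB motif and the serum response element core CArG. TGACGT and TGACATCA were added after seeing the windows. Windows were given for 8 of the 10 factors, 1 each for 7 of them and 3 for Maff, which has 3 starts in the table. The Junb window held none of the 7 motifs, and neither did that of Jund, whereas Jun held TGACATCA at −45 to −38, in capitals below (as did Maff), a variant of the AP-1 element that 3.62% of all 32851 windows hold.
Junb, 100 bases before the start (chr8:84978749-84978848, minus strand): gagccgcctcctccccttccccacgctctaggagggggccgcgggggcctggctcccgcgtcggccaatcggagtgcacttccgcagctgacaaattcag
Jun, 100 bases before the start (chr4:95052223-95052322, minus strand): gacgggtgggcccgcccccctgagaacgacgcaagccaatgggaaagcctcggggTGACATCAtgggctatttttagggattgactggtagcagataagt
A match is only a match of letters, and a window without one says nothing about binding elsewhere.

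In the Fos family, Fosl1 and Fosl2, the Fos-related antigens whose proteins lack the strong activation domain of Fos, stood higher with LPS. Fosl1 read 9.10, 8.83 and 8.62 in controls and 9.55, 9.90 and 9.30 with LPS, so that LPS and control values did not overlap. The difference was 0.73 ± 0.24 (1.66-fold, unadjusted p = 0.00892, adjusted p = 0.243, limma). With 6-MP present, Fosl1 read 9.01, 8.47 and 8.84 without LPS and 9.49, 9.28 and 9.96 with it. Again the groups did not overlap, and the difference was 0.81 ± 0.24 with an adjusted p of 0.163.

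Fosl2 read 10.91, 11.11 and 11.05 in controls and 11.90, 11.31 and 11.66 with LPS. All LPS arrays exceeded all controls, and LPS 2 was the lowest of the 3. The difference was 0.60 ± 0.19 (1.51-fold, unadjusted p = 0.00781, adjusted p = 0.229, limma). Under 6-MP the values were 10.96, 11.34 and 10.95 without LPS and 11.53, 11.46 and 11.31 with it, which overlapped by a narrow margin at 6-MP array 2. The difference there was 0.35 with a 95% interval of −0.05 to 0.76.

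Fos itself and Fosb, the members used as marks of recent stimulation, did not separate. Fos read 7.84, 8.71 and 7.91 in controls, 8.64, 7.83 and 8.09 with 6-MP, 8.32, 8.22 and 8.25 with LPS, and 9.17, 7.38 and 8.16 with both. The LPS arrays lay close together inside the range of the controls, while LPS + 6-MP held both the highest and the lowest of the 12 arrays. LPS minus control was 0.11 with an interval of −0.73 to 0.96 (adjusted p = 0.976, limma), so a rise of up to 0.96 on the log2 scale lay within the interval. Fosb read 6.65, 6.11 and 6.28 in controls, 6.21, 6.31 and 6.48 with 6-MP, 6.74, 6.52 and 6.05 with LPS, and 6.47, 6.28 and 6.79 with both. All groups overlapped at a signal near the level of silent genes, and LPS minus control was 0.09 with an interval of −0.39 to 0.57.

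The upstream stretches of Fosl2 and Fos are set side by side because the LPS and control arrays were separate for Fosl2 and overlapped for Fos. The Fos stretch starts at −100, so its own NF-kB motif at −214 to −205 is not printed. Capitals in Fosl2 mark overlapping NF-kB motifs from −182 to −172 and the EGR site at −79 to −71, and capitals in Fos mark TGACGT at −66 to −61, which is the core of a site for CREB and ATF proteins. The NF-kB motif was present in 8.46% of all windows and in 4 of the 8 factors with a window (Fos, Fosb, Fosl2 and Maff). GCGNGGGCG was in 5.55% of all windows and in 3 factors (Fosb, Fosl2 and Maff). TGACGT was in 7.51% of all windows and in 3 factors (Fos, Atf3 and Maff). By window, these motifs were in 4, 3 and 3 of the 10 windows of the factors. TGACGT was added after seeing these windows, so its count cannot be weighed against its share of all windows. The consensus TGACTCA and the CArG core, in 5.2% and 1.63% of all windows, were in none of the 10 windows of the factors.
Fosl2, −190 to −61 from the start (chr5:32136282-32136411, plus strand): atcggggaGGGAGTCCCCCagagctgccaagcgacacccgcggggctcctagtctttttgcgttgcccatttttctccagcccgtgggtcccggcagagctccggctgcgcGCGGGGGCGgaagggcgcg
Fos, 100 bases before the start (chr12:85473790-85473889, plus strand): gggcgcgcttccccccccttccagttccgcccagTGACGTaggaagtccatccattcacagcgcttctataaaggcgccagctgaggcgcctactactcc

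Egr1, a zinc finger factor that binds GC-rich sites and is fed by serum response factor and its ETS partners, was the other factor with an LPS difference near 2-fold. It read 9.85, 11.27 and 10.58 in controls and 11.69, 11.41 and 11.42 with LPS. All 3 LPS arrays lay above all controls, though control 2, an array that stands apart, came close to them. The difference was 0.94 ± 0.36 (1.92-fold, unadjusted p = 0.0222, adjusted p = 0.400, limma). It fell to 0.58 (adjusted p = 0.830) when control 1, the lowest control, was left out. In the presence of 6-MP it read 11.46, 10.39 and 10.91 without LPS and 12.40, 11.52 and 12.11 with it. Here too the groups did not overlap, and the difference of 1.09 ± 0.36 (2.13-fold) had an unadjusted p of 0.0101 and an adjusted p of 0.233. By group mean Egr1 ordered as control (10.57), 6-MP (10.92), LPS (11.51) and LPS + 6-MP (12.01), and adjacent groups in this order overlapped in their arrays.

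Atf3, a stress-induced factor that limits Toll-like receptor transcription in mouse macrophages, and Maff, a small Maf protein without an activation domain of its own, showed smaller LPS differences. Atf3 read 11.32, 12.12 and 11.61 in controls, 12.14, 11.46 and 11.18 with 6-MP, 11.94, 12.80 and 11.81 with LPS, and 12.57, 11.86 and 11.86 with both. The array that stands apart was the highest of its group in all 4 groups, and the groups overlapped. LPS minus control was 0.50 ± 0.33 (adjusted p = 0.782, limma). With 1 array left out it ran from 0.19 without LPS 2 to 0.71 without control 2, and was 0.32 without control 1. LPS + 6-MP minus 6-MP was 0.50 ± 0.33 (adjusted p = 0.645, limma), with values from 0.27 to 0.77 when 1 array was left out. Maff read 7.74, 8.30 and 7.49 in controls, 8.75, 7.74 and 7.48 with 6-MP, 8.23, 8.70 and 7.80 with LPS, and 8.80, 7.70 and 8.13 with both. Its highest array was again the one that stands apart in every group, and LPS minus control was 0.40 ± 0.38 (adjusted p = 0.877), and from 0.17 without LPS 2 to 0.63 without control 2.

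Atf3 and Maff are shown together because their values ran in parallel over the arrays, with a root mean square difference of 0.23. Both genes had TGACGT in a window. In Atf3 it was at −8 to −3 on the other strand, where it reads as the capitals below. In Maff it was at −29 to −22 as part of the full TGACGTCA in capitals, which 1.79% of all windows hold. TGACGT was added to the search after seeing the windows, so its presence in both genes is no test of their parallel values.
Atf3, 60 bases before the start (chr1:191183334-191183393, minus strand): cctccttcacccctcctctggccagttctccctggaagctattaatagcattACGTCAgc
Maff, −40 to −13 from the start (chr15:79347480-79347507, plus strand): ggctggggcggTGACGTCActgcatgac

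In cultures pretreated with 6-MP, 0 of the 10 factors passed both limits for LPS, where 1.31% of all clusters passed in the upward direction. Groups did not overlap for 2 of the 10, Fosl1 and Egr1, where 7.13% of all clusters lay higher without overlap. The comparison of LPS + 6-MP with 6-MP used other arrays than that of LPS with control, and the difference between the changes was tested as the interaction. It passed for 0 of the 10 factors and for 0% of all clusters after adjustment, and without adjustment it also passed for 0 of the 10 factors, where 0.302% of all clusters passed. The interaction was −0.12 for Junb with a 95% interval of −1.25 to 1.01, and 0.15 for Egr1 with an interval of −0.95 to 1.25. Both intervals include LPS changes that differ by 1.5-fold with and without 6-MP.

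**Figure D2:**
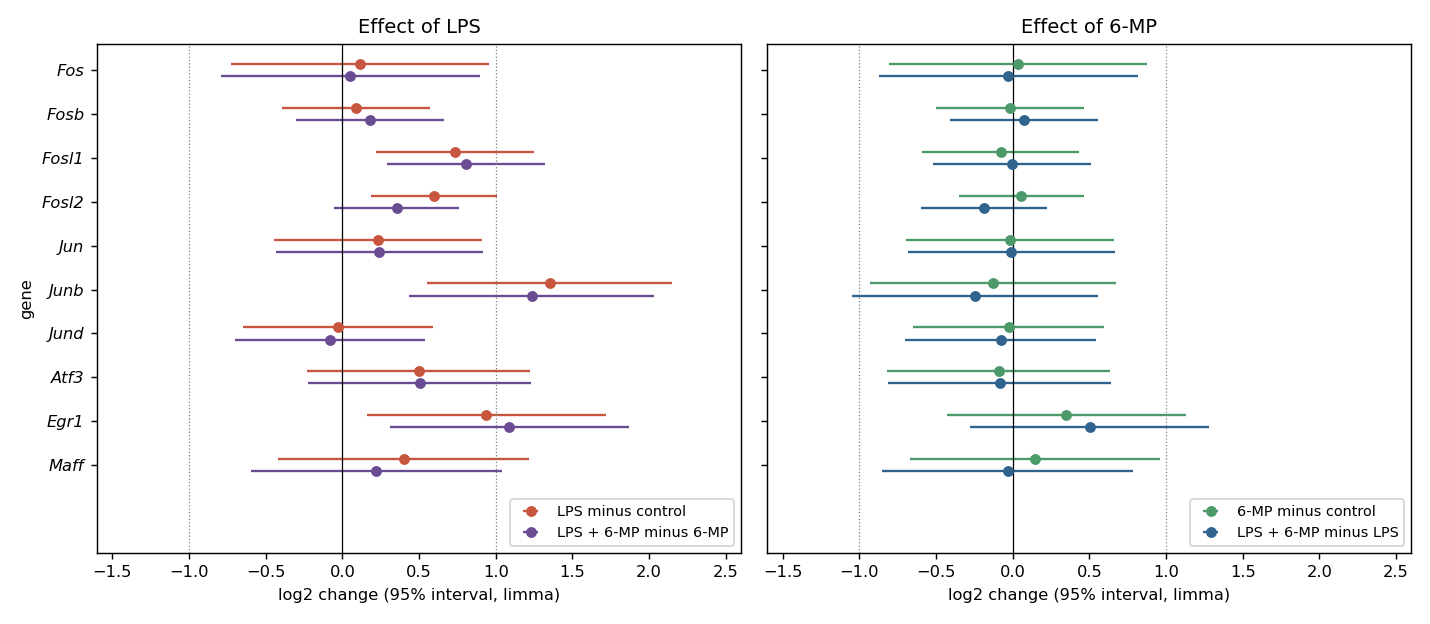
Log2 change of each gene with its 95% interval from limma, LPS comparisons on the left and 6-MP comparisons on the right; dotted lines mark a 2-fold change. In both LPS comparisons the intervals of Junb, Egr1 and Fosl1 lie above 0, and every 6-MP interval contains 0.

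The mean LPS effect over cultures with and without 6-MP was computed in the same fit, with 6 arrays on each side. Junb rose by 1.29 ± 0.26 on the log2 scale (2.45-fold, adjusted p = 0.0133, limma) and Egr1 rose by 1.01 ± 0.25 (2.02-fold, adjusted p = 0.0445). These 2 of 10 factors stand beside 1.86% of all clusters called higher by this comparison. Fosl1 had an adjusted p of 0.0211 at 0.77 ± 0.17, a fold of 1.71 that is below the limit of 2, where 2.68% of all clusters passed the p limit upward, and Fosl2 reached 0.48 ± 0.13 with an adjusted p of 0.0732. Fosl1 was also the factor in which all 6 LPS arrays lay above all 6 arrays without LPS, as 2.39% of all clusters did. For Atf3 the mean effect was 0.50 ± 0.24 (adjusted p = 0.325), for Maff 0.31 ± 0.27, for Jun 0.24 ± 0.22, for Fosb 0.13 ± 0.16, for Fos 0.08 ± 0.27 and for Jund −0.05 ± 0.20. The call of Egr1 was close to its limits. It was lost when control 1, control 3, 6-MP 2, 6-MP 3, LPS 1, LPS 2, LPS 3, LPS + 6-MP 1 or LPS + 6-MP 3 was left out, with changes from 0.84 to 1.04 and adjusted p from 0.0696 to 0.107, and under quantile normalization (adjusted p = 0.0524). Junb stayed past both limits in all 12 fits with 1 array left out and under quantile normalization.

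**Figure D3:**
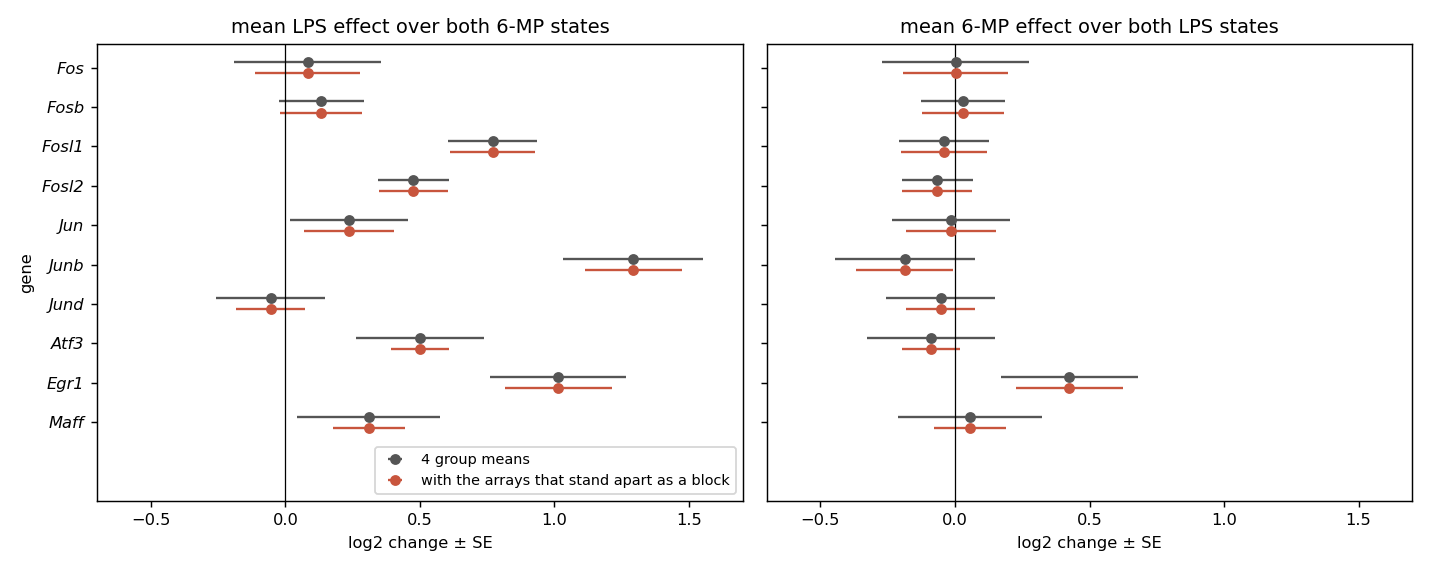
Mean LPS effect (left) and mean 6-MP effect (right) of each gene on the log2 scale, with bars for ± 1 SE from limma, for the fit on 4 group means and for the fit with the arrays that stand apart as a term. The point is the same in both fits and the bar of Atf3 shortens from 0.24 to 0.11 in the LPS panel.

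6-MP alone moved none of the factors past the limits. The call for 6-MP used a p under 0.05 without adjustment together with the 2-fold limit, and 0 of the 10 passed it, where 0.063% of all clusters did in either direction. The 6-MP and control arrays overlapped for all 10 factors, where 3.45% of all clusters lay higher and 2.46% lower without overlap. The largest difference was that of Egr1 at 0.35 (95% interval −0.43 to 1.13, adjusted p = 1 in limma), and the other 9 lay between −0.13 for Junb and 0.14 for Maff.

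In LPS-treated cultures, 6-MP pretreatment likewise passed the limits for 0 of the 10 factors, where 0.117% of all clusters passed. The groups overlapped for all 10, against 4.74% of clusters higher and 3.55% lower without overlap. Egr1 was again the largest at 0.50 with an interval of −0.28 to 1.28, and it was followed in size by Junb at −0.25 (interval −1.05 to 0.55) and Fosl2 at −0.19 (interval −0.60 to 0.22). The other 7 lay between −0.09 and 0.08. Over both LPS states the mean 6-MP effect on Egr1 was 0.42 ± 0.25 (unadjusted p = 0.119), and 0 of the 10 factors were called for it, where 0.054% of all clusters were. In LPS + 6-MP minus LPS the intervals of Fos (−0.87 to 0.81) and Maff (−0.85 to 0.78) reached past 1.5-fold in either direction. So did those of Atf3 (−0.81 to 0.64) and Jun (−0.69 to 0.67). The intervals of Junb, Fosl2 and Jund reached past it downward only, and that of Egr1 upward only. With the split of the arrays as a term, the same difference was −0.03 ± 0.27 for Fos and −0.03 ± 0.19 for Maff.

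The spread within groups varied between the factors. For Fos the pooled SD over the 4 groups was 0.55 on the log2 scale, and for Maff 0.53, Junb 0.52, Egr1 0.50 and Atf3 0.46, where the median of all clusters was 0.29. Fosl2, with 0.20, and Fosb, with 0.27, varied less than that median. Much of the spread followed the arrays that stand apart. Against the mean of the other 2 arrays of their group, these arrays were higher on average by 0.85 for Maff, 0.78 for Atf3, 0.71 for Fos, 0.69 for Junb, 0.58 for Jund, 0.58 for Egr1 and 0.52 for Jun. That is 7 of the 10 factors at 0.5 or more, against 8.74% of all clusters. In Maff, Atf3 and Junb the array that stands apart was the highest of its group in all 4 groups, as in 8.84% of all clusters. Fosl1 (0.17), Fosl2 (−0.10) and Fosb (−0.12) did not follow the split. The neuronal, epithelial, leukocyte, smooth muscle, fibroblast and macrophage markers moved with the same arrays, as given above, and their part in these differences was not tested.

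**Figure D4:**
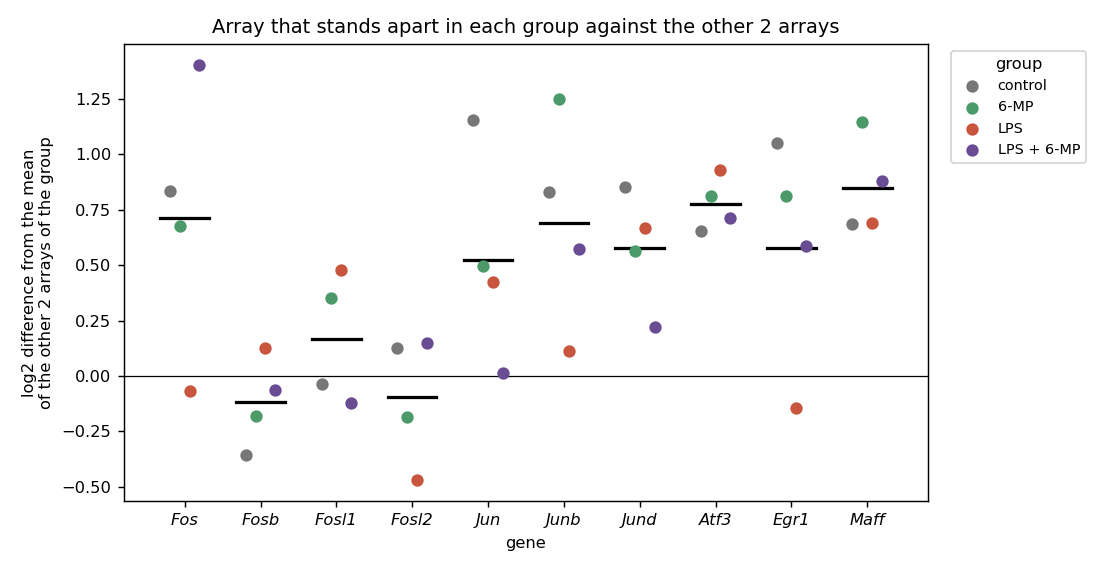
Log2 difference between the array that stands apart and the mean of the other 2 arrays of its group, 1 point per group and gene, with a bar for the mean of the 4 groups. All 4 points of Maff, Atf3, Junb, Jun and Jund lie above 0, and the bars of Fosb and Fosl2 lie at −0.12 and −0.10.

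With the split as a term, the pooled SD fell from 0.46 to 0.13 for Atf3, from 0.53 to 0.22 for Maff, from 0.38 to 0.20 for Jund and from 0.55 to 0.39 for Fos, while the median of all clusters went from 0.29 to 0.25. In that fit the mean LPS effect on Atf3 was 0.50 ± 0.11 with an adjusted p of 0.0134 (limma), which is 1.41-fold and below the fold limit. Junb (adjusted p = 0.000525) and Egr1 (adjusted p = 0.00704) again passed both limits, with 2.39% of all clusters called in either direction. Fosl1 (adjusted p = 0.00993) and Fosl2 (adjusted p = 0.0401) passed the p limit but not the fold limit. Without the 4 arrays, which leaves 4 arrays on each side, the mean LPS effect was 1.53 for Junb (adjusted p = 0.00217) and 1.25 for Egr1 (adjusted p = 0.0125), both past the limits, while it was 0.76 for Fosl1 (adjusted p = 0.0710), 0.52 for Fosl2 (adjusted p = 0.103) and 0.47 for Atf3 (adjusted p = 0.122). For LPS minus control alone, Egr1 had a change of 1.34 without the 4 arrays (adjusted p = 0.0898) and an adjusted p of 0.121 with the split as a term. Without the 4 arrays Fosl2 was at 0.80, Fosl1 at 0.56, Jun at 0.47, Fos at 0.41, Atf3 at 0.41, Maff at 0.40, Jund at 0.03 and Fosb at −0.07, none of them past the limits in either fit. Under 6-MP, Egr1 was at 1.16 without the 4 arrays (adjusted p = 0.137) and had an adjusted p of 0.0596 with the split as a term. The set of 4 arrays was defined from these same data, so these p-values are open to that choice. The share of all clusters called without the 4 arrays is not given here, so the calls in that fit cannot be weighed against it.

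The other AP-1 and Maf genes were followed as a list. Of 8 measured, 1 rose with LPS, namely Batf, a zipper protein that pairs with Jun proteins in lymphocytes and myeloid cells, by 1.09 ± 0.18 (adjusted p = 0.00569, limma), where 1.51% of all clusters were called higher. Under 6-MP it rose by 1.27 (adjusted p = 0.00231). Batf2, of the same family, was at 0.95 (adjusted p = 0.0255, below the fold limit), and Maf, a large Maf protein of macrophages and lens, was at −0.70 (adjusted p = 0.310). The list's median change was 0.38. Atf7 had no cluster with its symbol and was not analysed here.

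Among 21 other immediate early genes, 2 rose with LPS and none fell, where 1.51% of all clusters rose and 0.0946% fell past the limits. Csrnp1, a nuclear protein with a cysteine and serine rich domain, rose by 1.34 ± 0.21 (adjusted p = 0.00356, limma), and Zfp36, which encodes tristetraprolin, a protein that speeds the decay of AU-rich mRNAs such as that of TNF, rose by 1.31 ± 0.30 (adjusted p = 0.0492). Both also rose under 6-MP, by 1.14 and 1.39. Ier3, a stress and survival gene, was at 1.92 with an adjusted p of 0.0617 and Myc, a growth-promoting factor, at 1.10 with an adjusted p of 0.0875. The median of the list in LPS minus control was 0.54. By the mean LPS effect, which called Junb and Egr1, 4 of the 21 rose, where 1.86% of all clusters did. There Csrnp1 and Zfp36 were joined by Ier3 (1.91, adjusted p = 0.0038, limma) and Myc (1.07, adjusted p = 0.0077). In LPS-treated cultures 1 of the 21 fell with 6-MP by the unadjusted rule, the orphan nuclear receptor Nr4a3, by 1.00 ± 0.25 (unadjusted p = 0.00179, adjusted p = 1.00), where 0.117% of all clusters were called. Its group means ran from 5.66 with 6-MP alone, below the level of silent genes, to 7.03 with LPS.

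Of 17 measured kinases and factors upstream of AP-1 and serum response factor, 1 rose and 1 fell with LPS, where 1.51% of all clusters rose and 0.0946% fell past the limits. Map3k8, the kinase also called Tpl2, which carries the LPS signal to the ERK pathway in macrophages, rose by 1.87 ± 0.31 (adjusted p = 0.00636, limma) and by 1.45 under 6-MP. Map2k6, a kinase that activates p38, fell by 1.07 ± 0.24 (adjusted p = 0.0452), and under 6-MP its change was −0.80 with an adjusted p of 0.178. Nab1, a corepressor of EGR factors, was at 0.91 with an adjusted p of 0.0277, below the fold limit. The list's median was 0.03.

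Textbook AP-1 targets had the highest median change of the lists, 0.98 over 11 measured genes, and 3 of them rose, where 1.51% of all clusters did. They were Mmp13, a collagenase, by 3.28 ± 0.65 (9.71-fold, adjusted p = 0.0199, limma), Cd44, a hyaluronan receptor, by 2.19 ± 0.24 (adjusted p = 0.000254), and Timp1, an inhibitor of metalloproteinases, by 2.01 ± 0.33 (adjusted p = 0.00514). Under 6-MP, Cd44 and Timp1 rose by 1.90 and 1.62, while Mmp13 was at 2.84 with an adjusted p of 0.0518. Mmp10, a stromelysin, was at 2.18 with an adjusted p of 0.304, and Plaur, the urokinase receptor, at 0.98 with an adjusted p of 0.0195. By the mean LPS effect 4 of the 11 rose, where 1.86% of all clusters did. There Mmp10 (2.13, adjusted p = 0.0445, limma) joined Mmp13, Cd44 and Timp1. These genes also answer to NF-kB and other LPS-driven factors, and which factor acted on them was not tested.

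**Figure D5:**
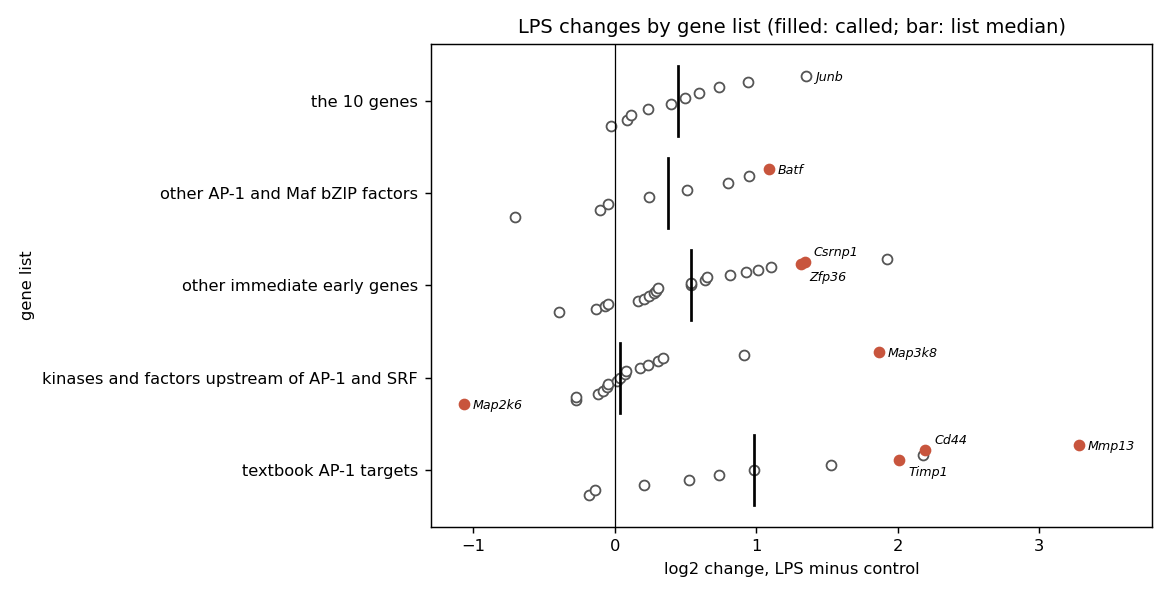
Log2 change of LPS minus control for the 10 genes and for 4 lists of related genes, 1 point per gene, filled where the gene passed an adjusted p of 0.05 and a fold of at least 2, with a bar at the list median. The list medians run from 0.03 for upstream kinases and factors to 0.98 for AP-1 targets, and no point of the 10 genes is filled.

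The clusters whose pattern over the 12 arrays was most like that of Junb were found from the root mean square difference of mean-centred log2 values. Only the 19572 clusters with 1 gene symbol were compared. Zfp36 was the closest at 0.15, followed by Lgals9 (0.28), which encodes galectin-9, Phlda1 (0.28), of the pleckstrin homology-like family, and Noct (0.30), which encodes nocturnin. The median over the compared clusters was 0.85. For Fos the closest were Cpeb4 (0.21), Npepps (0.21), Atp6v1e2 (0.22) and Gm6568 (0.23), with a median of 0.54 over the compared clusters. The arrays that stand apart enter these measures with the rest.

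Markers of other cell types were read in the same LPS comparison. The mean level of 7 macrophage markers was 9.97 in controls (arrays 9.50 to 10.66) and 8.95 in LPS arrays (8.43 to 9.22), and 7 of 7 and 6 of 7 of the markers lay above the level of silent genes. Past both limits fell Cx3cr1, the fractalkine receptor of macrophages, with an adjusted p of 0.0213 (limma) from a mean of 6.93 to 4.19, the latter below the level of silent genes, and Tcf21, a factor of gut mesenchyme, which fell by 1.35 with an adjusted p of 0.00212. The macrophage markers did not all move one way, since Adgre1, which encodes a surface receptor of mouse macrophages, was at 0.72 (unadjusted p = 0.0226, adjusted p = 0.404) and at 0.87 under 6-MP (adjusted p = 0.213). Ptprc, which encodes the leukocyte surface protein CD45, was at 0.82 (unadjusted p = 0.00418, adjusted p = 0.155). In LPS minus control no measured marker of neurons, glia, smooth muscle, epithelium, endothelium or other leukocytes was called. Among them the glial and progenitor marker Fabp7 was at −1.335 (unadjusted p = 0.00385, adjusted p = 0.147, limma). In LPS + 6-MP minus 6-MP Fabp7 fell by 1.69 (adjusted p = 0.0436), where 0.131% of all clusters fell, and Tcf21 fell as well (adjusted p = 0.0168). The interaction for Fabp7 was −0.36 (unadjusted p = 0.515, limma). By the mean LPS effect, which called Junb and Egr1, 4 markers were called and all were lower, where 0.221% of all clusters were. They were Fabp7 (−1.51), Tcf21 (−1.18), Cx3cr1 (−2.37) and C1qa, a complement gene of macrophages (−1.14), while Adgre1 was at 0.80 with an adjusted p of 0.0411, below the fold limit. Neuronal markers had means of 11.19 in controls and 11.18 with LPS. Under 6-MP their mean was 11.20 without LPS (arrays 10.86 to 11.81) and 10.89 with it (10.35 to 11.35). Of 8 neuronal markers, 1 was above 0 in LPS + 6-MP minus 6-MP (median −0.35). For the mean LPS effect 1 of 8 was also above 0 (median −0.18), and none was called in either comparison. The part of the macrophage, glial, fibroblast and neuronal signals in the LPS differences of Junb, Egr1, Fosl1 and Fosl2 was not tested.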

How the data were processed

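Total RNA of 12 ENS primary cultures (4 groups of 3) was hybridised to Clariom S arrays. The authors used the Transcriptome Analysis Console 4.0.1.36, and the deposited values are log2 signals per transcript cluster, with array medians of 7.41 to 7.53 and values from 2.61 to 18.8. The normalization, background correction and genome build are not given in the sources used here. Of 28846 entries, 6640 control entries were left out. Of the 22206 clusters tested, 19572 carried 1 gene symbol and 2634 none that could be used.

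Groups came from the sample titles. The limma package (3.58.1, R 4.3.3) was fitted to the log2 values with 4 group means, contrasts and eBayes. Residual degrees of freedom were 8 and the prior added 4.25. Adjusted p-values follow Benjamini-Hochberg across every cluster tested. A call needed a change of 2-fold or more and a p under 0.05, adjusted for LPS comparisons and the interaction, unadjusted for 6-MP comparisons. Comparisons that share a group share its arrays. Exact permutation tests were not used, since 3 against 3 arrays cannot go below p = 0.1. The number of arrays limits the precision. The methods give 3 independent experiments, and which arrays of different groups share one is not given. The fit was tested on simulated data whose noise was independent between clusters and arrays. That test did not cover a split shared by arrays.

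The 10 factors are all named. From each list the called genes (up to 4 a direction) and up to 2 others are named, and Nr4a3 was named after its values were seen. Of 65 list genes, 8 had no cluster with their symbol and were not analysed here. The factors, lists and arrays that stand apart were chosen with earlier results of these data known. Mean effects and 2 motifs were added after seeing the data. Promoter windows (300 bases, 10 windows for 8 factors, of 32851 in all) come from RefSeq, GRCm38.p6. Figures were drawn with matplotlib 3.10.9.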

Additional observations from a re-analysis of the deposited data

How the results depend on the processing

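The count of factors called for LPS minus control went from 0 to 1 (Junb) with only the compared groups in the fit (adjusted p = 0.0371), with an unadjusted p, without the 4 arrays that stand apart and with their split as a term. For LPS + 6-MP minus 6-MP it went from 0 to 2 with an unadjusted p (Junb and Egr1), and to 1 (Junb) without the 4 arrays and with their split as a term. Leaving out 1 array gave 0 for LPS minus control and 0 to 1 for LPS + 6-MP minus 6-MP. The mean LPS effect had 2 factors called, which became 1 with the replicate block (Egr1, adjusted p = 0.0840) and with quantile normalization (Egr1, adjusted p = 0.0524), and 1 to 2 with 1 array left out. Fosl1 joined the calls of the mean LPS effect with no fold limit, where 2.68% of all clusters passed upward. With the split as a term, 2.2% of all clusters were called in either direction for LPS minus control and 2.14% for LPS + 6-MP minus 6-MP. For the mean LPS effect that fit called 2.39%. The shares under the other altered settings are not given here, so the counts there cannot be weighed against them. The counts for both 6-MP comparisons, their mean and the interaction were 0 in every setting tried, and no called change turned its sign. Same-numbered arrays of different groups had correlations of their deviations from −0.454 to 0.596, and 6 of 18 such pairs were over 0.1, so the numbers were not taken as a pairing; the replicate block changed no other call and left 0 factors for LPS minus control. The alternative of averaging all clusters of a symbol could not change a factor, since each had 1 cluster. In every case of 1 array left out, the group with 2 arrays was assumed to vary like the others. The cause of these changes was not tested.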
